A study of Homo sapiens with 4 samples.

Results

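The Notch receptor genes NOTCH1, NOTCH2 and NOTCH3, the genes of the nuclear complex RBPJ and MAML1, and the target genes HES1, DTX1 and NRARP were followed in Jurkat, a human line established from a T cell leukaemia. Their probe sets were chosen by gene symbol alone: every probe set whose only symbol in the platform annotation was one of these 8 genes was taken, which gave 17 probe sets of 41091 with 1 symbol, and 8 genes of 19775. One line carried a control hairpin (called a vector in the titles) and the other, shIKKE, a short hairpin RNA against IKKε, the product of IKBKE, an IKK-related kinase of the interferon and NF-κB pathways. Cells of each line received solvent, or PMA at 10 ng/ml with ionomycin at 0.5 uM, for 3 h; PMA switches on protein kinase C and ionomycin raises calcium. This gave 4 groups of 1 array each: control line with solvent, control line stimulated, shIKKE line with solvent and shIKKE line stimulated. Whether either line is 1 clone or a pool of cells is not given in the sources used here.

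Notch receptors are cut after a ligand binds, first by an ADAM protease and then by γ-secretase, and the freed intracellular domain enters the nucleus, where it binds the DNA-binding factor RBPJ and recruits the coactivator MAML1. RBPJ without Notch sits with corepressors on the same target genes, so that the same sites can be silenced or activated. Notch signalling directs precursors to the T cell lineage, and activating changes of NOTCH1 are frequent in T cell acute lymphoblastic leukaemia, the disease from which Jurkat cells come.

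The values are signals of the MAS5 algorithm, 1 per probe set and array, on a linear scale. A pseudocount of 14.1 was added to each signal before log2 differences were taken, so changes of dim probe sets are understated, and a gene was counted as higher or lower where it differed by at least 2-fold (a log2 difference of 1 or more). With 1 array per group there is no replicate, so a difference between single arrays has no test and no error. A gene passed the filter if at least 1 of the 4 arrays read 56.4 or more (the median signal overall) and was represented by its brightest passing probe set. All 8 genes passed, by 14 of their 17 probe sets, as did 13718 genes in all, and the brightest probe set of each of the 8 was above 56.4 on all 4 arrays. As a measure of how far probe sets of 1 gene differ on these arrays, the 2 brightest probe sets of 2302 brighter genes differed in their log2 change by a median of 0.22 (control line) and 0.21 (shIKKE line), and by 0.60 and 0.62 at the 90th percentile.

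Facts that touch all values are these. The median signal was 48.8 and 49.6 on the solvent arrays of the control and shIKKE lines, and 59.8 and 69.1 on their stimulated arrays. The part of these levels in the values of dim probe sets was not tested. The ratio of 5′ to 3′ signal of the ACTB control probe sets lay between 0.244 and 0.401. All 10 T cell markers were at or above the median signal on all 4 arrays, as were 1 of 5 B cell markers (CD79A), 0 of 5 myeloid, 0 of 4 NK cell and 2 of 6 stromal or endothelial markers (COL1A1 and PECAM1). The summed signal of each list ranged over the arrays from 71821 to 78515 for T cell, from 376 to 604 for B cell, from 93.0 to 228 for myeloid, from 66.9 to 225 for NK cell and from 3597 to 4076 for stromal or endothelial markers. In RNA from whole cultures, a change in fewer cells and a smaller change in every cell cannot be told apart. By its brighter probe set the targeted gene IKBKE read 340 (control) and 180 (shIKKE) with solvent, then 520 and 248 with stimulation, a log2 difference of -0.87 and -1.03. Its other probe set read 218 (control) and 287 (shIKKE) with solvent, then 311 and 280 with stimulation, and so was higher in shIKKE cells with solvent.

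**Figure D1:**
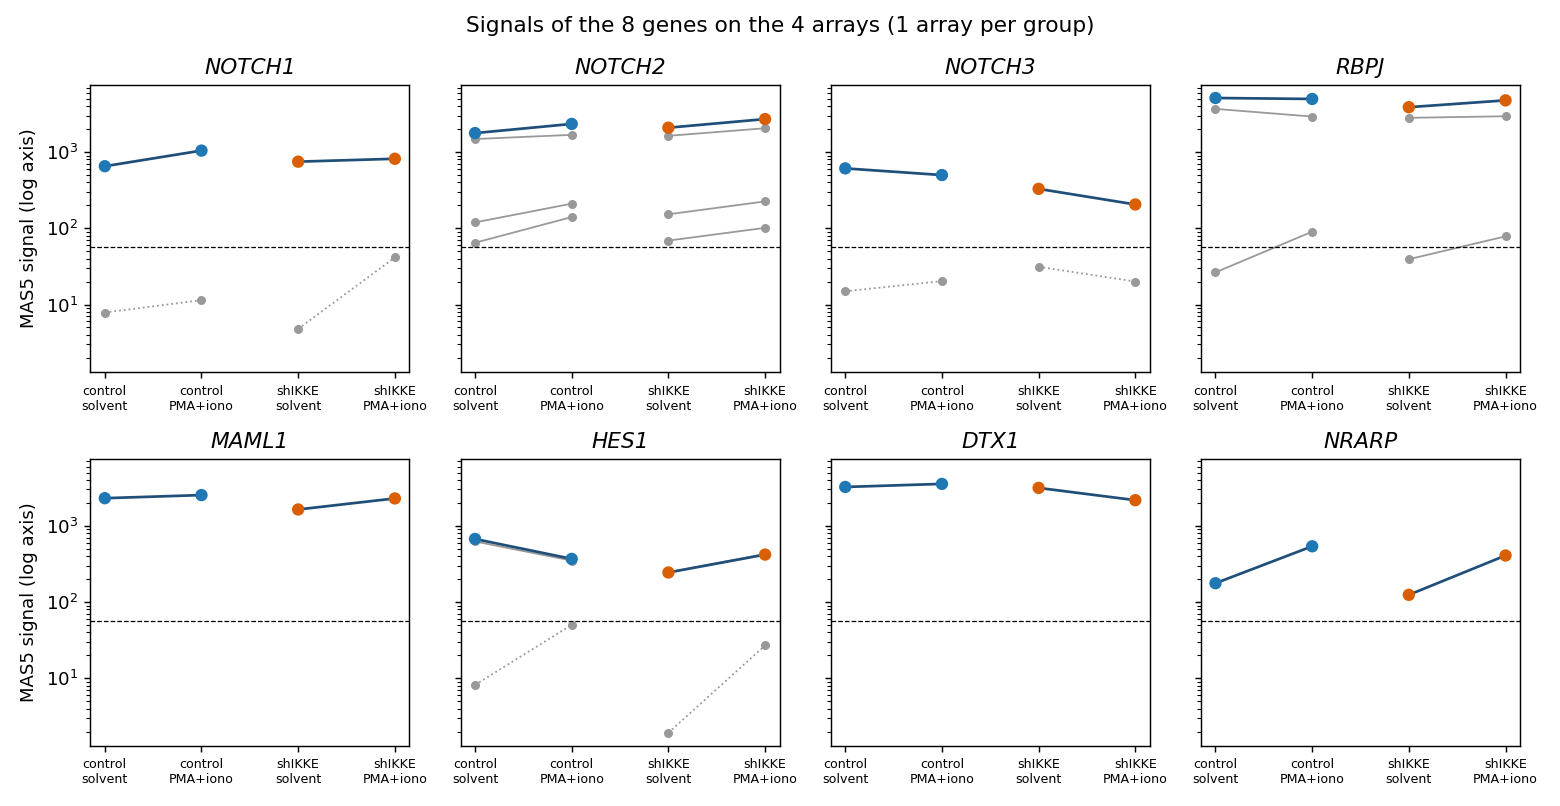
MAS5 signal (log axis) of each probe set of the 8 genes on the 4 arrays, with 1 array per group; coloured points joined by dark lines are the brightest probe set (blue, control line; orange, shIKKE line), grey are the others, dotted where the probe set did not pass the filter (dashed line, 56.4). NRARP was higher with stimulation in both lines, NOTCH3 lower in the shIKKE line, and HES1 lower with stimulation in the control line and higher in the shIKKE line.

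The receptors differed little with stimulation and most between the lines in NOTCH3. NOTCH1, the main Notch receptor of T cell precursors, read 653 with solvent and 1046 with stimulation in the control line, and 749 and 817 in the shIKKE line. The log2 changes were 0.67 and 0.12, both within 2-fold, and the stimulated control array was the highest of the 4. A second NOTCH1 probe set read 7.9, 11.4, 4.8 and 41.5 in the same order and stayed under the median signal on every array.

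NOTCH2, a receptor with a wider tissue range, was a little higher with stimulation in each line by each of its 4 probe sets. The brightest read 1776 and 2341 in the control line and 2090 and 2710 in the shIKKE line, a log2 change of 0.40 and 0.37. The next brightest read 1484 and 1683, then 1635 and 2055. The dimmer pair read 119 and 211, and 64.7 and 141, in the control line, and 153 and 225, and 69.0 and 101, in the shIKKE line. Over the 4 probe sets the log2 change, with the pseudocount, ranged from 0.18 to 0.97 in the control line and from 0.33 to 0.52 in the shIKKE line. Without it, the ratio of the signals of the dimmest was 2.17 in the control line. The brightest is of a class of probe sets that can bind other transcripts too, and 1 further probe set that the annotation assigns to NOTCH2 and another gene was left out. NOTCH2 has close partial copies in the genome, so which copy gave the signal is uncertain.

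NOTCH3, a receptor whose own gene is a Notch target in T cell leukaemia, had the largest line difference of the receptors. Its brighter probe set read 611 with solvent and 500 with stimulation in the control line, and 329 and 206 in the shIKKE line. Both shIKKE arrays lay below both control arrays. The shIKKE signal was 0.539 of the control signal with solvent and 0.411 with stimulation, a log2 difference of -0.86 and -1.23, so that NOTCH3 was past 2-fold with stimulation alone. Among all 13718 genes, 202 had a lower value in the stimulated comparison and 1205 in the solvent comparison. In the same probe set the log2 change with stimulation was -0.28 in control cells and -0.65 in shIKKE cells. The other NOTCH3 probe set read 14.9, 20.3, 31.3 and 20.0 (control solvent, control stimulated, shIKKE solvent, shIKKE stimulated), under the median signal on all arrays, and did not share this pattern. NOTCH3 therefore rests on 1 probe set.

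The genes of the nuclear complex stayed within 2-fold in their brightest probe sets. By its brightest probe set RBPJ, the DNA-binding factor of the pathway, read 5127 and 4979 in control cells, then 3884 and 4772 in shIKKE cells. The next brightest read 3688 and 2925, then 2816 and 2953. The brightest, as for NOTCH2, is of the class that can bind other transcripts, and RBPJ has pseudogenes. With both, the control line with solvent was the highest array and the shIKKE line with solvent the lowest, a log2 difference of -0.40 and -0.39 between them. The dimmest RBPJ probe set read 26.5 and 90.3, then 39.3 and 78.5, a log2 change of 1.36 and 0.79 with stimulation that the bright probe sets did not share (-0.04 and -0.33 in control cells, 0.30 and 0.07 in shIKKE cells). MAML1, the coactivator that joins Notch and RBPJ, read 2305 and 2533 in the control line and 1640 and 2289 in the shIKKE line. Its log2 change with stimulation was 0.14 and 0.48, and its log2 difference between the lines was -0.49 with solvent and -0.15 with stimulation.

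Of the targets, NRARP was higher with stimulation in both lines and by a similar size. NRARP encodes a small ankyrin repeat protein that binds the Notch complex and lowers the level of the Notch intracellular domain, a feedback on the pathway. It read 177 with solvent and 539 with stimulation in the control line, and 124 and 408 in the shIKKE line. Both stimulated arrays were above both solvent arrays. The stimulated signal was 3.05 times the solvent signal in control cells and 3.28 times in shIKKE cells, a log2 change of 1.54 and 1.61, and the difference between these responses was 0.07. Of 13718 genes, 403 had a larger increase in the control line and 586 in shIKKE cells. The NRARP signal of the shIKKE line was 0.704 of the control signal with solvent and 0.756 with stimulation. NRARP has 1 probe set on the array, so no second reading exists here.

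HES1 was lower with stimulation in the control line and higher in the other. HES1 encodes a basic helix-loop-helix repressor that acts at N box sequences, its own promoter included, and is the best known Notch target. Its brightest probe set read 672 with solvent and 369 with stimulation in the control line, and 244 and 420 in the shIKKE line. The solvent arrays were the highest and the lowest of the 4, and the stimulated arrays lay close together between them. The log2 change was -0.84 in control cells and 0.75 in shIKKE cells, each within 2-fold, while the difference between the responses was 1.59, above that of all but 686 genes. A second probe set read 623 and 350, then 246 and 427, with log2 changes of -0.81 and 0.76. With solvent the shIKKE signal was 0.363 of the control signal by the first and 0.395 by the second, a log2 difference of -1.41 and -1.29. With stimulation the log2 difference was 0.18 and 0.28. The dimmest HES1 probe set read 8.2 and 50.3, then 1.9 and 26.9, all under the median signal, and was higher with stimulation in each line. The line difference with solvent, the response of each line and the difference of the responses all use the solvent arrays, so they are not separate readings of HES1.

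DTX1, which encodes an E3 ubiquitin ligase that acts on Notch and is itself a Notch target in lymphocytes, read 3237 and 3550 in the control line and 3146 and 2171 in the shIKKE line. The stimulated shIKKE array was the lowest and the other 3 lay close together. The log2 change with stimulation was 0.13 in control cells and -0.53 in shIKKE cells, and the log2 difference between the lines was -0.04 with solvent and -0.71 with stimulation. So the 3 targets did not share a pattern over these single arrays, though DTX1 stayed within 2-fold throughout and has 1 probe set.

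**Figure D2:**
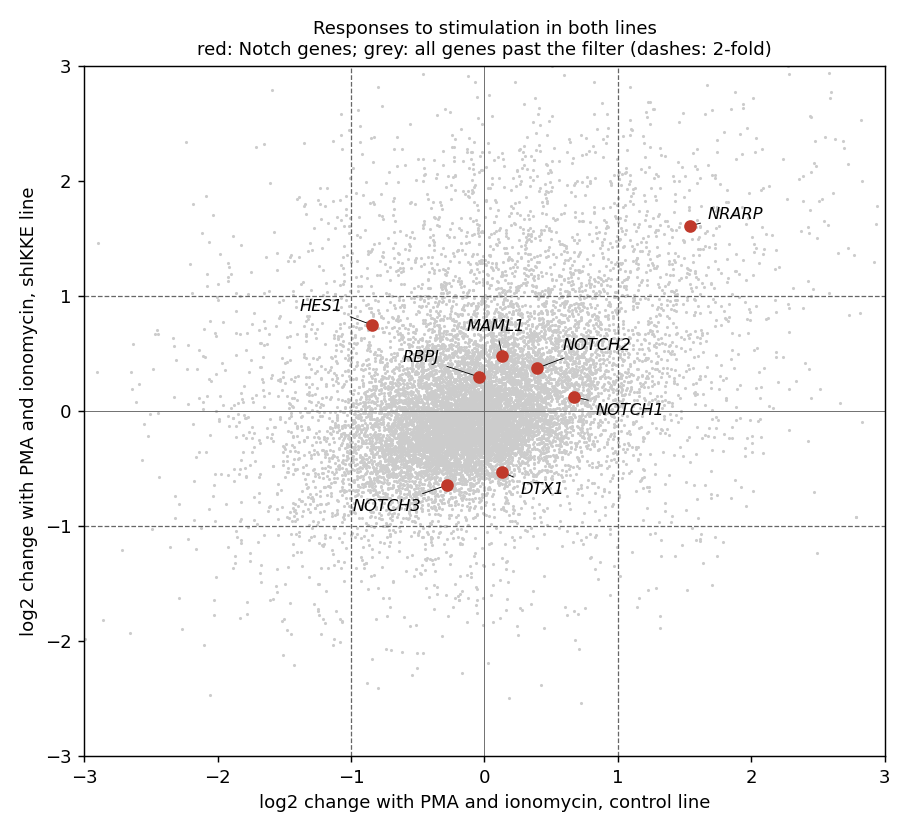
Log2 change with PMA and ionomycin in the control line (horizontal) and the shIKKE line (vertical) of 13718 genes (grey) and the 8 Notch genes (red), with dashed lines at 2-fold; 92 genes lie outside the plotted range of -3 to 3. NRARP stands at 1.54 and 1.61, HES1 at -0.84 and 0.75, and the other 6 genes within 2-fold on both axes.

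The promoters of the 3 genes that passed 2-fold in a comparison are shown because HES1 carries in this window the sequence through which RBPJ is known to act. RefSeq promoter windows (GRCh38.p14) were found for 7 of the 8 genes, with none for DTX1. Below are the 250 bases before the start site, 5′ to 3′ on the strand of the gene, with capitals for the core of the RBPJ site (TGGGAA) and the N box (CACNAG, N being any base), each searched on both strands. HES1 lies at chr3:194135898-194136147 on the plus strand, NRARP at chr9:137302272-137302521 on the minus strand and NOTCH3 at chr19:15200996-15201245 on the minus strand.
HES1: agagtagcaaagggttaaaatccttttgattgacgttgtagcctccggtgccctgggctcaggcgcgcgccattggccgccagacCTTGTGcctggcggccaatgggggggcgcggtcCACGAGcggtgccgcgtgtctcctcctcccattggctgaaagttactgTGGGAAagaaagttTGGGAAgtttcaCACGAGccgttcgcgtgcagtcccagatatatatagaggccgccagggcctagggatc
NRARP: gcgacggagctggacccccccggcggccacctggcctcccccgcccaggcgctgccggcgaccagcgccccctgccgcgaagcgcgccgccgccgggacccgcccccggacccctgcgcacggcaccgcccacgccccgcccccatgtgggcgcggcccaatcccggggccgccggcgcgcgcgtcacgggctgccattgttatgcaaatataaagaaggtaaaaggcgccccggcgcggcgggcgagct
NOTCH3: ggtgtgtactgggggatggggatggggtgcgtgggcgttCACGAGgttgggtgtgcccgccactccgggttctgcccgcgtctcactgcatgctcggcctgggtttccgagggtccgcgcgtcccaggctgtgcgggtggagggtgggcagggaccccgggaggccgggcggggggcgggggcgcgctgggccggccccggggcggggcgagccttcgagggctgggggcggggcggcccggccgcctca
HES1 held 2 RBPJ cores, which begin 84 and 70 bases before the start site on the plus strand with 8 bases between them, and 3 N boxes, which begin 165, 132 and 58 bases before it. NRARP held neither motif in this window, and NOTCH3 held 1 N box, 211 bases before its start site. Of the other members, 1 of the 5 RBPJ windows also held 2 RBPJ cores, 115 and 72 bases before its start site and on opposite strands, another held 1 N box, and MAML1 held 1 N box, while the windows of NOTCH1 and NOTCH2 held neither motif. Of all 35116 windows of this length, 20.8% held an RBPJ core and 2.9% held 2 or more, while 32.0% held an N box and 0.911% held 3 or more. The motifs do not overlap each other in these windows. A match is a stretch of letters and was not tested as a binding site, and no match covers these 250 bases only.

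Counted over the 8 genes, each comparison had 1 member past 2-fold. With stimulation this was NRARP, higher in the control line (1 of 8, where 7.57% of all genes were higher and 6.44% lower) and higher in the shIKKE line (10.3% of all genes higher, 2.68% lower). In the shIKKE line over the control line it was HES1, lower with solvent (6.68% of all genes lower, 4.34% higher), and NOTCH3, lower with stimulation (2.37% lower, 5.99% higher). In the difference of the responses it was HES1 (11.4% of all genes with a response at least 2-fold larger in shIKKE cells, 4.67% lower). A count of 1 in 8 is 12.5%, the smallest share above 0 that 8 genes allow, and is given beside these shares as a description. The median log2 change of the 8 with stimulation was 0.13 (control line) and 0.33 (shIKKE line), against -0.07 and -0.01 over all genes. Between the lines it was -0.43 with solvent and -0.25 with stimulation, against -0.05 and 0.03 over all genes.

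Averaged over the lines, no member passed the test across all genes. In limma's additive model of line and stimulation, NRARP was 1.57 ± 0.25 (SE) higher on the log2 scale with stimulation, with an adjusted p of 0.139, and higher in 2 of 2 lines. The same model in limma gave NOTCH3 a line difference of -1.05 ± 0.26 (SE), with an adjusted p of 0.583, lower in 2 of 2 treatments. HES1 had an average stimulation effect of -0.05 ± 0.44 (SE) in limma with an adjusted p of 0.971, an average of 2 opposite changes. With limma, 0 of 8 members passed for stimulation (1 gene of all passed, 0.00729%) and 0 of 8 for the line (0 genes of all). At an unadjusted p under 0.05 in limma there was 1 member for each, NRARP and NOTCH3, among 13.8% and 7.29% of all genes. The model has 1 residual degree of freedom, the difference of the lines' responses, and no error between replicates. To this limma adds prior degrees of freedom, which stand for a variance borrowed from all genes, 3.70 in the main fit. They were 15.2 with a pseudocount of 56.4, 6.15 with the stricter filter and infinite with the variance trend, and from 2.27 to 3.60 otherwise. With the trend, no gene's own error entered its p-value. NRARP passed for stimulation in limma with a pseudocount of 56.4 (adjusted p = 0.00355), with the stricter filter (adjusted p = 0.017) and with the error variance following the level (adjusted p = 3.13e-05), and with the last NOTCH3 passed for the line (adjusted p = 0.0227). Under the other alternatives the adjusted p of NRARP in limma ranged from 0.153 to 0.304.

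**Figure D3:**
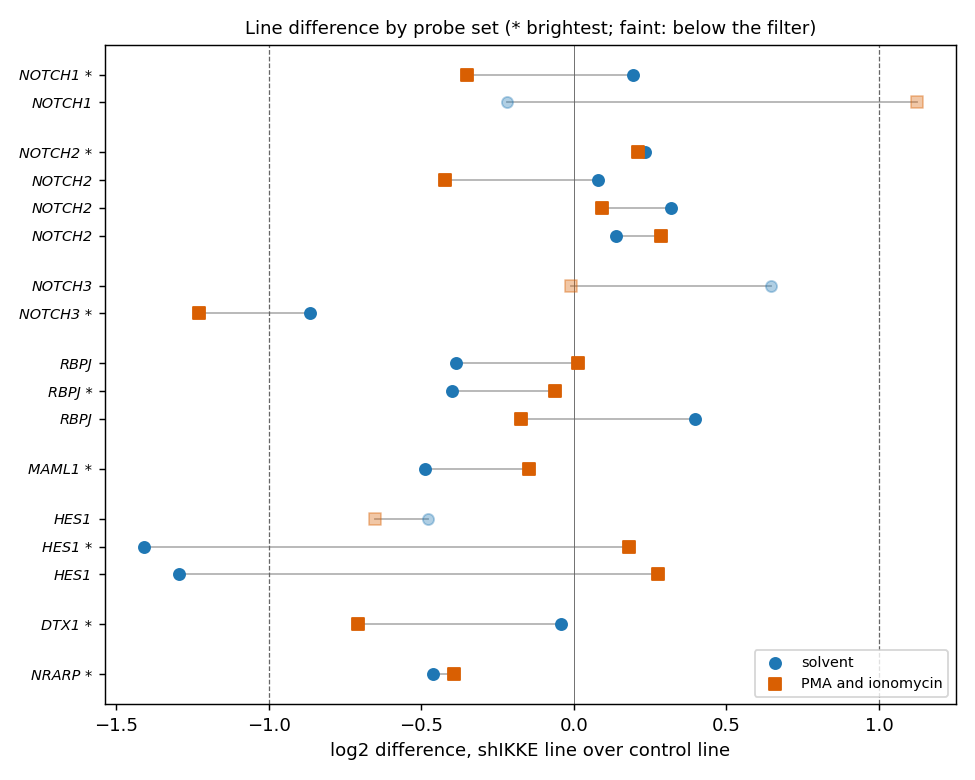
Log2 difference of the shIKKE line over the control line for each of the 17 probe sets of the 8 genes, with solvent (blue circles) and with PMA and ionomycin (orange squares); an asterisk marks the brightest probe set, faint points are below the filter and dashed lines mark 2-fold. The 2 bright HES1 probe sets lie at -1.41 and -1.29 with solvent and at 0.18 and 0.28 with stimulation, and the bright NOTCH3 probe set at -0.86 and -1.23.

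The other genes of the pathway were read from 9 lists by role, of 72 genes in all, of which 63 passed the filter. With stimulation 11 of 63 were at least 2-fold higher and 6 lower in the control line (17.5% and 9.52%), and 9 higher and 6 lower in the shIKKE line (14.3% and 9.52%), with medians of -0.06 and -0.07. Over all genes the shares were 7.57% higher and 6.44% lower in the control line, and 10.3% and 2.68% in the shIKKE line. Between the lines 2 were higher and 8 lower with solvent (4.34% and 6.68% of all genes), with a median of 0.08, and 2 higher and 1 lower with stimulation (5.99% and 2.37% of all genes), with a median of -0.01. Some genes named in the next paragraphs were not given by the naming rule and were chosen after their values were seen. These were ADAM17, JAG1, HEY2, GATA3, TRIB2, CCND3, IGF1R and SPEN throughout, and JAG2, CR2 and IL2RA where 2 others of their list had larger changes.

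The largest difference with stimulation in these lists was that of LFNG, which encodes the Fringe glycosyltransferase that alters which ligands Notch binds. It read 25.5 with solvent and 377 with stimulation in the control line, and 47.3 and 632 in the shIKKE line, a log2 change of 3.30 and 3.40. Both stimulated arrays were far above both solvent arrays. Of the other 4 glycosylation enzymes, POGLUT1, which adds glucose to the receptor, was at least 2-fold higher in the control line alone (log2 1.22, and 0.29 in the shIKKE line). Among 7 receptor processing genes, which include the proteases that cut Notch, 0 passed 2-fold by the brightest probe set in any of the 4 comparisons, and the median lay between -0.23 and -0.10. ADAM17, a protease that can cut Notch, had a log2 change of 0.86 with stimulation in each line by that probe set (2186 and 3977 in control cells, 1915 and 3498 in shIKKE cells). Its 2 dimmer probe sets were past 2-fold in both lines, one at 1.21 and 1.54 (721 and 1681, then 583 and 1726) and the other at 1.57 and 1.25 (187 and 584, then 191 and 475).

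Ligand genes were mixed and mostly dim. With stimulation in the control line 3 of 5 were higher, where 7.57% of all genes were, namely DLK2 (log2 2.28), JAG1 (1.18) and JAG2 (1.01), and DLL4 was lower (-2.01). DLL4 read 70.9, 7.0, 54.1 and 71.0 (control solvent, control stimulated, shIKKE solvent, shIKKE stimulated), so that 1 dim array carried that value. In the shIKKE line JAG2 was higher with stimulation, from 54.4 to 262 (log2 2.01, and 2.0 by a second probe set), and DLL3 was lower (-1.10, but -0.48 and 1.0 by 2 dimmer probe sets). JAG2, a transmembrane ligand, was lower in the shIKKE line with solvent (log2 -1.09, and -0.46 by the second probe set), where DLK2 was higher (1.07). With stimulation DLL4 was higher in the shIKKE line (log2 2.02).

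Among 7 HES and HEY family genes, HEY1, a Notch-induced repressor related to HES1, was the 1 member at least 2-fold higher with stimulation in both lines. It read 406 and 852 in the control line and 250 and 546 in the shIKKE line, a log2 change of 1.04 and 1.09, and 0.85 and 1.22 by a second probe set. HEY1 was within 2-fold in the shIKKE line with quantile normalization (0.96) and in the control line with the median of its probe sets (0.95). HES5 in the control line (log2 1.37) and HES7 in the shIKKE line (2.34) were higher too, both dim genes with signals of at most 67.6 and 80.7. In the order control solvent, control stimulated, shIKKE solvent, shIKKE stimulated, HES5 read 17.5, 67.6, 36.4 and 39.0. HES7 read 52.4, 48.7, 4.6 and 80.7. Each passed the filter only through the array where it was counted as higher, so the filter favoured these values, which the counts include. HEY2 was lower with stimulation in the shIKKE line (-1.05). HES4, a bright member, differed between the lines: it read 7996 and 8639 in the control line and 3488 and 4505 in the shIKKE line, a log2 difference of -1.19 with solvent and -0.94 with stimulation. Both shIKKE arrays lay below both control arrays. HES7 was lower in the shIKKE line with solvent, at 4.6 against 52.4 (log2 -1.83).

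Of 11 further Notch targets of T lineage cells, 2 were higher and 3 lower with stimulation in each line, where 7.57% of all genes were higher and 6.44% lower in the control line and 10.3% and 2.68% in the shIKKE line. In the control line these were IL2RA (log2 1.43) and GATA3 (1.40), and IL7R, the interleukin-7 receptor gene (-1.55), MYC (-1.43) and CR2 (-1.27). In the shIKKE line they were GATA3 (1.51) and IL2RA (1.05), and MYC (-2.21), BCL11B (-2.07) and TRIB2 (-1.15). IL2RA was dim (26.5 and 95.6 in the control line). A second probe set had 0.54 in that line and 2.26 in the shIKKE line (19.3 and 146). In the control line the median of its probe sets, 0.99, was within 2-fold. BCL11B, a transcription factor of T cell commitment, had changes of -1.42 and -0.84 by dimmer probe sets in the shIKKE line. MYC, a growth-promoting transcription factor that Notch drives in T cell leukaemia, read 7663 and 2839 in the control line and 12539 and 2702 in the shIKKE line. Between the lines with solvent, CR2 (962 and 74.0, log2 -3.47), PTCRA, the pre-T cell receptor chain gene (817 and 349, -1.19), and CCND3 (-1.03) were lower in the shIKKE line. The other PTCRA probe sets had -1.51 and -0.91, and the median of its probe sets, -0.91, was within 2-fold. CCND3 read 12329 and 6023, and its other probe set, dim with solvent (3.2 and 10.3), had 0.49. With stimulation CR2 alone was at least 2-fold lower by the brightest probe sets (391 and 45.4, log2 -2.77), and PTCRA stood at -0.83. Between the lines IGF1R stood at 0.00 with solvent and 0.51 with stimulation by its brightest probe set. Its next brightest, nearly as bright, read 2022 and 1758 in the control line and 977 and 832 in the shIKKE line. That probe set had -1.04 with solvent and -1.07 with stimulation, and a dimmer IGF1R probe set had -0.19 and -1.64. The median of the list was 0.33 with solvent and -0.01 with stimulation. The list was chosen with the CR2 and MYC values known.

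Of the coactivators, EP300 (log2 1.14, and 0.37 by a dimmer probe set) and MAML3 (1.10, and 0.01 by a dim probe set) were higher with stimulation in the shIKKE line. There EP300 was within 2-fold with the median of its probe sets (0.75). MAML3 was within 2-fold there with that median (0.56) and with quantile normalization (0.73). MAML3, a relative of MAML1, was lower in the control line (log2 -1.06), and with KAT2B (-1.15) it was lower in the shIKKE line with solvent (-1.57). Of 9 corepressors, TLE1, a Groucho family protein that HES factors recruit, was lower with stimulation in both lines, from 3310 to 1510 (log2 -1.12) and from 3002 to 1477 (log2 -1.02). Of the other TLE1 probe sets, the brighter pair had -1.39 and -1.08, and -1.22 and -0.57, while 2 dim ones had 0.95 and 0.13, and 0.61 and 0.30. In the shIKKE line TLE1 was within 2-fold with quantile normalization (-0.97) and with the median of its probe sets (-0.57). SPEN, another corepressor of the list, was within 2-fold by its brightest probe set (log2 0.96 in control cells, 0.26 in shIKKE cells). The next brightest SPEN probe set was past 2-fold higher in both lines, at 2.18 (1263 and 5777) and 1.79 (1318 and 4588). A dimmer one read 631 and 1276, then 973 and 1174. The dimmest had 2.48 and -0.85, and so was lower with stimulation in the shIKKE line. Among 11 trafficking and turnover genes, NUMB, an adaptor that opposes Notch, was higher with stimulation in both lines, with 64.7 and 168 (log2 1.21) and 51.9 and 195 (1.66). With quantile normalization NUMB stood at 0.90 in the control line. DTX3, a relative of DTX1, was higher in the control line (log2 1.40) from signals of 10.3 and 50.3, and higher in the shIKKE line with solvent (1.60), where 1 dim array enters both values. In the shIKKE line DTX3 read 59.6 with solvent and 25.2 with stimulation. It passed the filter only through the shIKKE solvent array, so the filter favoured the line difference with solvent. The fourth receptor gene, NOTCH4, was dim and read 53.3, 22.3, 66.2 and 95.1, a log2 difference of 1.59 between the stimulated lines. NOTCH4 passed the filter only through the arrays of the shIKKE line, the higher side of that difference.

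**Figure D4:**
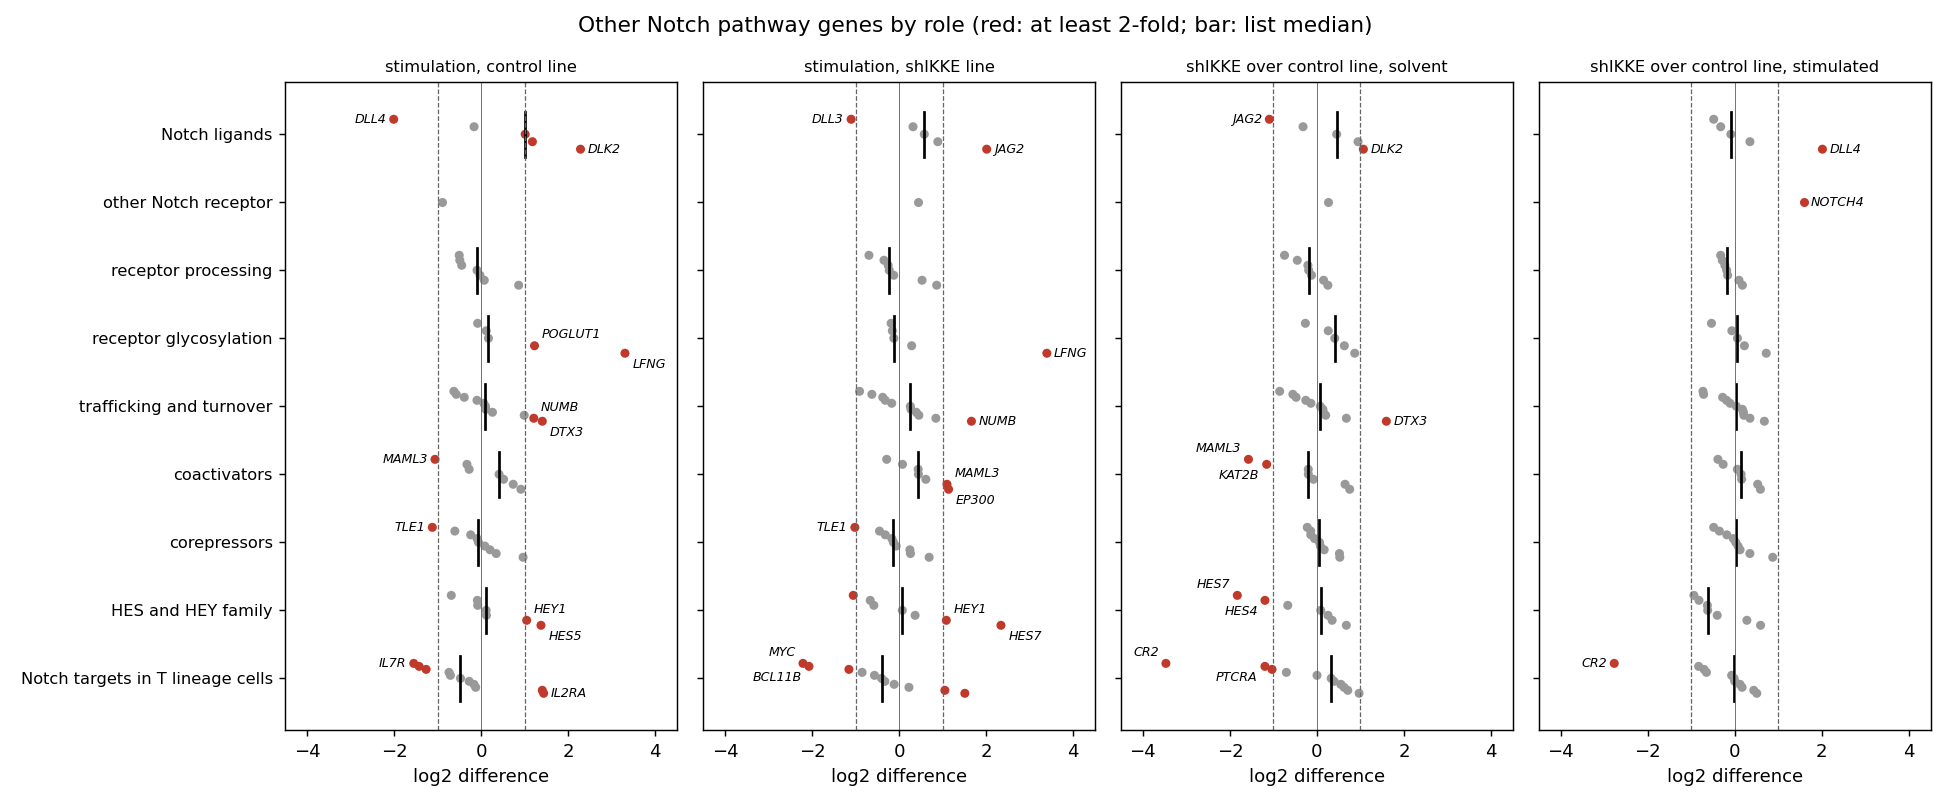
Log2 difference of each of the 63 other pathway genes past the filter, by role (rows) and comparison (panels), with red points at least 2-fold, black bars for the median of lists of 5 or more genes and labels for up to 2 genes a list. LFNG has the highest value with stimulation in each line (3.30 and 3.40) and CR2 the lowest between the lines (-3.47 and -2.77).

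Genes with the most similar pattern over the 4 arrays were sought for the 3 members that spanned at least 2-fold, by the Euclidean distance of their 4 log2 values after the mean of each was removed, among 6859 brighter genes. For NRARP these were KBTBD2 (2012, 5366, 1462 and 4387; distance 0.11) and IFNGR2 (2018, 5836, 1597 and 4820; 0.12), in the order control solvent, control stimulated, shIKKE solvent, shIKKE stimulated. For HES1 they were OXR1 (1723, 986, 701 and 1166; distance 0.10) and POC1B (2350, 1152, 853 and 1423; 0.13). For NOTCH3 they were PSIP1 (6331, 4855, 3215 and 2370; distance 0.17) and ARPC1A (2554, 2353, 1733 and 988; 0.22). The likeness covers 4 arrays and no more.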

How the data were processed

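Total RNA of the 4 samples was labelled with biotin and put on 1 single-colour oligonucleotide array each. Each value the authors deposited is a linear intensity of a probe set, computed by MAS5 per the submitters' processing notes, with version, scaling target and filters not given in the sources used here. The mean after trimming both ends was 500.1 on each array, so the arrays share a scale. Groups came from the titles. No sample column was left out (0). Symbols came from the platform annotation (41091 probe sets with 1 symbol, 1801 with several, 11721 with none), of which 41037 matched RefSeq by gene ID; 62 array controls were left out.

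Values were log2 of the signal plus 14.1, the 25th percentile of all signals. R 4.3.3 and limma 3.58.1 estimated average effects (additive lmFit, then eBayes; two-sided, Benjamini-Hochberg over 13718 genes, threshold 0.05). A check on simulated data required only that the mean estimate lay near the planted change, and the p-values were not judged by it. Nothing in the labels tells if cultures were separate. Other steps used Python 3.11.15, pandas 2.3.3, numpy 2.4.6 and matplotlib 3.10.9. Alternatives were no pseudocount, a pseudocount of 56.4, quantile normalization, no filter, a filter at 113, the median of a gene's probe sets, and for limma a variance trend. Named genes were all 8 members, IKBKE, from each list and comparison the 2 with the largest difference past 2-fold, MYC, and the 2 nearest genes in pattern to each member spanning 2-fold. The members and lists were chosen with earlier results of these data known.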

Additional observations from a re-analysis of the deposited data

Results flagged for a closer look

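4 members had effects of opposite sign in the 2 lines or treatments, each on single arrays, and the difference was not tested. HES1 was lower with stimulation in the control line and higher in the shIKKE line, a difference of the responses of 1.59 on the log2 scale. RBPJ (0.34) and DTX1 (-0.66) also had responses of opposite sign, of which that of RBPJ in the control line was -0.04 and that of DTX1 was 0.13. NOTCH1 was higher in the shIKKE line with solvent and lower with stimulation, a difference of the responses of -0.55.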

How the results depend on the processing

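No count of members past 2-fold differed from 1 in any comparison under the 6 alternatives, and the members counted were the same ones. Of 240 alternative values of the 8 members, 0 crossed 2-fold, and 1 of 40 values changed sign under any of them, that of RBPJ between the stimulated lines, from -0.06 to 0.01 with the median of its probe sets. NRARP ranged from 1.35 to 1.61 in the control line and from 1.36 to 1.71 in the shIKKE line, HES1 from -1.46 to -1.26 between the solvent lines, and NOTCH3 from -1.32 to -1.09 between the stimulated lines. In limma, members called for stimulation went from 0 to 1 with the larger pseudocount, the stricter filter and the variance trend, and for the line from 0 to 1 with the trend; the cause was not tested. Over all genes these gave 573, 398 and 1044 calls for stimulation against 1, and 39, 2 and 232 for the line against 0. With no pseudocount, no filter or the median of the probe sets limma called 0 genes for either; at an unadjusted p under 0.05 it had 1591, 2150 and 1898 for stimulation and 845, 1344 and 923 for the line.

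Quantile normalization moved the split of all genes at least 2-fold higher and lower with stimulation from 1039 and 884 to 814 and 1190 in the control line, and from 1417 and 368 to 908 and 795 in the shIKKE line, and between the stimulated lines from 822 and 325 to 598 and 410. Counts over all genes fell with the larger pseudocount (541 and 435 in the stimulated control line) and the stricter filter (678 and 570), which tests fewer genes, and were larger with no filter (1648 and 1380). The limma model compares stimulation within each line, with the line as a term; the labels give no replicate numbers for a further block. Dim probe sets limit these data: 3 of the 17 member probe sets never reached the median signal.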
